A study of Capra hircus with 29 samples.

Results

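The antioxidant enzymes described here were 10 genes, SOD1, SOD2, CAT, GPX1, GPX4, PRDX1, PRDX2, PRDX3, TXN and TXNRD1, of the 21343 genes listed for goat oocytes. They were chosen by gene symbol and not by a measured value, though with earlier results of these data known. Each symbol had 1 entry except PRDX1, which had 3. The PRDX1 entry of highest mean level was used (ENSCHIG00000009892), and the other two (ENSCHIG00000013284 and ENSCHIG00000024794) were listed at 0 in all 29 samples.

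The samples were oocytes of Ji'ning grey goats, an old Chinese breed of high fecundity, from a high and a low fertility group, each split by large, medium or small follicles. The series' design text gives litters of more than 3 kids for the high and fewer than 2 for the low fertility group. The methods instead give at least 3 and at most 2 kids per litter. The groups were HLO and LLO (large follicles), HMO and LMO (medium) and HSO and LSO (small), where H and L stand for high and low fertility, with 5 samples each and 4 of HSO. The design text speaks of single-cell sequencing, whereas the methods describe 2 to 3 oocytes in each sample, taken from oocytes pooled by stage (stated for the high fertility group). In a sample of several oocytes, a lower level in every oocyte cannot be told apart from fewer oocytes that hold the transcript. The goats behind a sample, their ages and the cumulus cells left on the oocytes are not recorded. Where the pooling is stated, the samples of a group were parts of the same pool and not separate goats. The p-values thus measure the spread between such samples, which may be partly technical, and not the spread between goats. The values are FPKM, counts of fragments scaled for the length of the gene and the size of the library, so that levels can be compared between genes. Counts are not given, so the depth behind each value is unknown.

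Oocytes produce superoxide and hydrogen peroxide as mitochondria respire. Superoxide dismutases turn superoxide into hydrogen peroxide, which catalase, glutathione peroxidases and peroxiredoxins then reduce to water. Peroxiredoxins are in turn reduced by thioredoxin, which thioredoxin reductase restores with electrons from NADPH. An oocyte stores many such mRNAs while it grows, for use during maturation and in the early embryo.

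The oocyte markers GDF9, BMP15, ZP2, ZP3, ZP4, OOEP and DDX4 were above 0.5 FPKM in 29 of 29 samples. FIGLA was above it in 28, DAZL in 21 and NLRP5 in 5. Of the granulosa cell markers, FSHR, AMH and CYP19A1 were above 0.5 FPKM in none, whereas STAR, at a mean of 18.8 FPKM, was above it in all 29. INHBA was above 0.5 FPKM in 10 samples (at most 5.21), FST in 5 (at most 1.54) and INHA and CYP11A1 in 1 each. The sum of the granulosa markers (8 of 10 found by symbol) ranged from 5.14 to 39.8 FPKM. On average it was mostly STAR, since the next highest mean was 0.677 FPKM (INHBA). LMO (20.8 to 39.8) lay above HMO (9.31 to 16.0) without overlap, while LLO (5.68 to 17.6) lay below HLO (18.0 to 30.5). Of all single genes tested, 1.7% were free of overlap between HMO and LMO and 0.432% between HLO and LLO. The part of the granulosa markers in the results for medium and large follicles was not tested. Theca and endothelial markers summed to at most 1.61 FPKM in any sample and leukocyte markers to at most 0.938 FPKM. Red blood cell markers summed to between 2.15 and 34.2 FPKM, with AHSP and HBM the main contributors, while SLC4A1 was never above 0.0187 FPKM. LLO replicates 2 and 5 were least like the other samples (median Spearman rho over genes of 0.756 and 0.760), and estimates in large follicles are also given without them where they are described in detail. LMO replicate 2 had the lowest FPKM sum, 222697, against up to 490048 in the others.

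SOD1, PRDX1 and TXN were among the most abundant transcripts of these oocytes. Averaged over 29 samples, SOD1, the cytosolic copper-zinc superoxide dismutase, stood at 809 ± 337 FPKM (SD, n = 29). PRDX1, a cytosolic peroxiredoxin, stood at 755 ± 537 FPKM, and TXN, cytosolic thioredoxin, at 626 ± 401 FPKM. Each of these was above more than 99.3% of all genes listed. PRDX2, a second cytosolic peroxiredoxin, was at 94.7 ± 50.3 FPKM. GPX4, the selenoenzyme that reduces lipid hydroperoxides in membranes, was at 66.0 ± 63.2 FPKM. The mitochondrial peroxiredoxin PRDX3 followed at 20.1 ± 18.0 FPKM. GPX1, the general glutathione peroxidase of the cytosol and mitochondria, was at 8.60 ± 6.45 FPKM and SOD2, the manganese superoxide dismutase of mitochondria, at 4.63 ± 3.94 FPKM. TXNRD1, the cytosolic thioredoxin reductase, was at 1.48 ± 1.07 FPKM, and catalase, the peroxisomal enzyme encoded by CAT, was lowest at 0.603 ± 0.363 FPKM. CAT was above 0.5 FPKM in 18 samples and TXNRD1 in 27, and the other members in all 29.

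**Figure D1:**
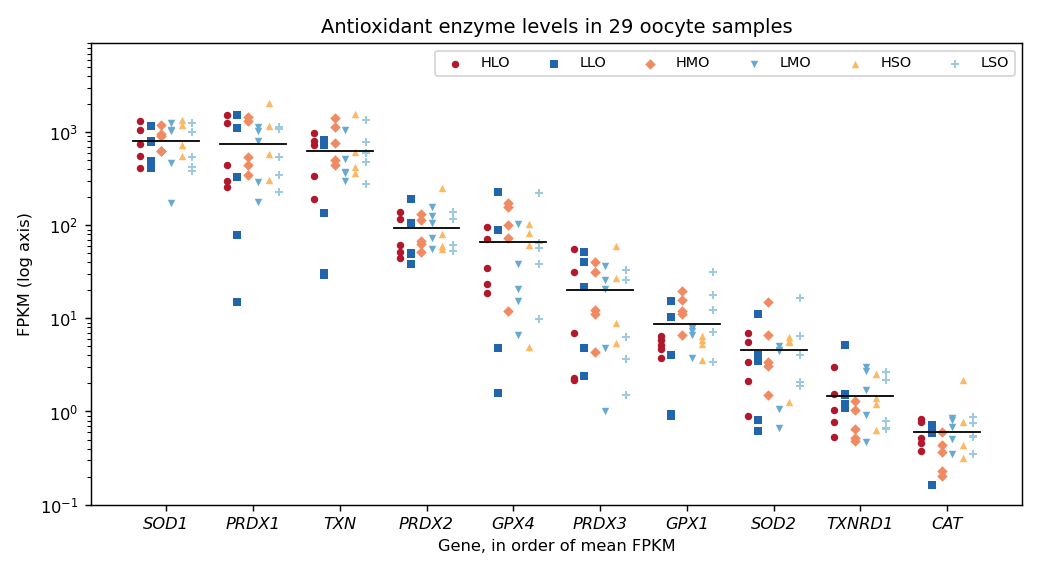
FPKM of each enzyme in each of the 29 samples on a log axis, with the genes in order of mean FPKM, points marked by group and the mean over all samples as a line. SOD1, PRDX1 and TXN lie about the same height, CAT is lowest with a mean of 0.603 FPKM, and the groups overlap within nearly every gene.

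Neighbours in this order were compared within samples by sign-flip permutation tests with 100000 resamples, two-sided, on log2(FPKM + 1). SOD1 exceeded PRDX1 in 19 of 29 samples by 0.47 ± 1.09 on the log2 scale (p = 0.00830, adjusted p = 0.0107 over 9 pairs, permutation test). PRDX1 and TXN did not differ beyond their spread, since PRDX1 was higher in 14 of 29 samples (difference 0.18 ± 1.71, permutation p = 0.565). That pooled value joins opposite orders, since by their other genes the samples formed 2 clusters, and PRDX1 exceeded TXN in 14 of 14 samples of the first (by 1.76 ± 0.78) and in 0 of 15 of the second (-1.29 ± 0.65). The step from TXN down to PRDX2 was the widest over all samples, at 2.46 ± 1.59 on the log2 scale, but measured 1.28 ± 0.86 in the first cluster and 3.56 ± 1.30 in the second. PRDX3 and GPX1 were the other pair whose order was not established (0.75 ± 1.95, PRDX3 higher in 17 of 29, adjusted permutation p = 0.0553), and its order too turned with the cluster. PRDX3 was higher by 2.39 ± 1.17 in the first cluster (14 of 14 samples), whereas in the second the difference was -0.79 ± 1.05 and PRDX3 was higher in 3 of 15. For the other 6 pairs the higher member led in 20 to 29 samples, and the largest adjusted permutation p among them was 0.00103. Of these, GPX1 and SOD2 had medians of 4.99 and 5.59 FPKM in the first cluster and of 7.07 and 1.86 in the second. SOD1 and PRDX1 had medians of 1120 and 1152 FPKM in the first cluster and of 542 and 331 in the second. The pooled order of each of these pairs thus came mainly from the second cluster. TXNRD1 was above CAT in 29 of 29.

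The mitochondrial forms were lower than their cytosolic counterparts. The log2 ratio of (FPKM + 1) of SOD2 to SOD1 was -7.31 ± 0.69 (SD, n = 29), and that of PRDX3 to PRDX1 was -5.31 ± 1.27. The ratio of the reductase TXNRD1 to its substrate TXN was -7.66 ± 1.78 on the same scale, and ranged from -9.89 in HSO replicate 3 to -2.28 in LLO replicate 5. GPX4 exceeded GPX1 by 2.26 ± 1.63 and PRDX1 exceeded PRDX2 by 2.64 ± 1.03. The lowest PRDX1 to PRDX2 ratio, -1.28, was that of LLO replicate 2, the sample with the least PRDX1.

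The members differed in how far they varied among samples. GPX4 had the widest range, 145-fold between the lowest and the highest sample, and PRDX1 ranged over 137-fold. PRDX3 ranged over 59.1-fold and TXN over 53.2-fold. Ranges for GPX1, SOD2, CAT and TXNRD1 were 35.2-fold, 27.2-fold, 13.3-fold and 11.2-fold. SOD1, at 7.94-fold, and PRDX2, at 6.55-fold, were the steadiest by this measure. On log2(FPKM + 1), the SD of GPX4 was 1.77, of PRDX3 1.53, of PRDX1 1.49 and of TXN 1.37. Each was larger than that of over 95% of the 9692 genes tested, whose median SD was 0.56. Those genes were not matched on level, and the 1 added to FPKM shrinks this SD where levels are low. CAT had an SD of 0.27 and SOD1 of 0.71, though the SD of FPKM was 60.2% of the mean for CAT and 41.7% for SOD1. The high rank of abundant members may thus partly reflect their level. The share of the variation on the log2 scale that lay between the 6 groups differed by member. The groups accounted for 34.3% of the sum of squares of GPX1, 33.1% of TXN and 4.95% of PRDX3, against a median of 16.8% over all genes tested.

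The first question of the design was whether the enzymes differed between the fertility groups at each follicle stage. No member passed an adjusted p of 0.05 by limma's moderated test with Benjamini-Hochberg adjustment over all genes, in large, medium or small follicles. Among all genes tested 0% were called in large follicles, 0.0715% in medium and 0.0119% in small. At an unadjusted p under 0.05 the members passing were 0 of 10 in large follicles (4.14% of all genes), 1 of 10 in medium, GPX1 (8.67%), and 0 of 10 in small (4.41%). With the further requirement of a log2 fold change beyond 1, no member passed in any stage, against 2.29%, 3.4% and 1.7% of all genes. The samples of both groups overlapped for every member in the 3 comparisons, whereas 0.432%, 1.7% and 2.05% of all genes were free of overlap. Median log2 fold changes of the members were 0.15, 0.41 and 0.04, with medians over all genes of -0.09, -0.07 and -0.01. The median in medium follicles depended on LMO replicate 2. Without that sample it was -0.08, with 4 of 10 members positive rather than 7, and the all-gene median was -0.12.

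GPX1 was the member with the largest share of its variation between groups. In large follicles GPX1 was at 4.69, 5.15, 6.47, 5.81 and 3.79 FPKM in HLO and at 4.05, 0.886, 10.4, 15.5 and 0.939 FPKM in LLO, in order of replicate number (1, 3, 4 and 5 for HSO, and 1 to 5 otherwise). In medium follicles GPX1 was at 12.1, 6.59, 19.6, 15.7 and 11.2 FPKM in HMO and at 8.11, 7.28, 7.80, 6.67 and 3.78 FPKM in LMO. In small follicles GPX1 was at 5.30, 5.90, 6.54 and 3.54 FPKM in HSO and at 31.2, 7.07, 17.6, 12.3 and 3.36 FPKM in LSO. HMO was high and HLO and HSO were low and narrow, whereas LLO and LSO spread widely. All HMO samples lay above all HLO and all HSO samples, and these were the only 2 of 150 combinations of a member and a pair of groups with no overlap. Over all genes tested 0.936% of such combinations had none, and for these particular pairs the share was 1.01% (HMO with HLO) and 2.15% (HMO with HSO). These pairs were picked out after the values were seen.

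Between HMO and LMO the log2 fold change of GPX1 was 0.82 ± 0.34 (SE), with adjusted p = 0.529 by limma, and permuting the 5 and 5 samples gave an exact two-sided p = 0.0397. It was 1 of 30 such tests of the members and the only one under 0.05. The smallest p these group sizes allow is 0.00794. In small follicles the estimate had the opposite sign, -0.99 ± 0.53 (adjusted p = 0.880 by limma, exact permutation p = 0.135), and in large follicles it was 0.26 ± 0.59, or -0.68 ± 0.45 without LLO replicates 2 and 5. The interaction of stage and fertility for GPX1 had an adjusted p = 0.665 by limma's F-test, so a difference between the stages in its fertility contrast was not established. The granulosa marker sum, mostly STAR, was higher in LMO than in HMO, and its part in these GPX1 values was not tested.

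**Figure D2:**
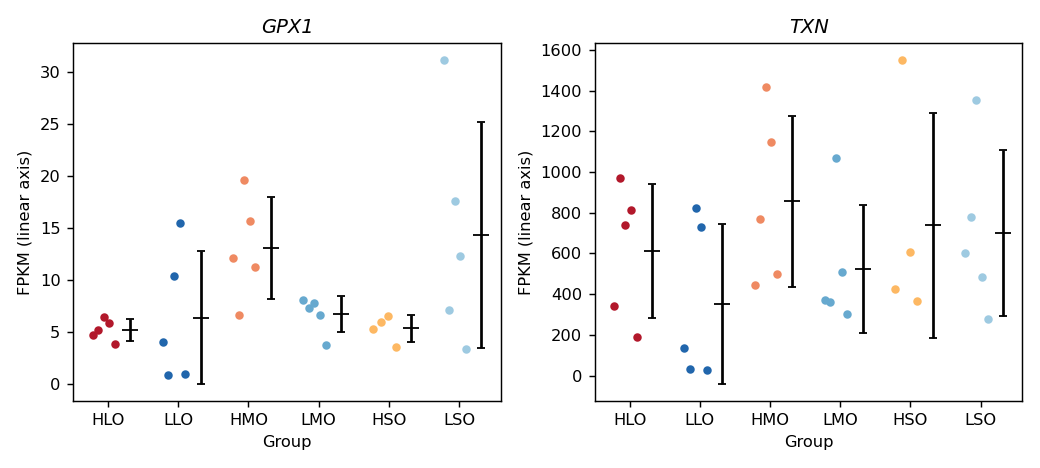
FPKM of GPX1 and TXN on linear axes, one point per sample in order of replicate number, with the mean and SD of each group in black (n = 5, HSO n = 4). The 5 HMO samples of GPX1 sit between 6.59 and 19.6 FPKM, above every HLO and HSO sample, and LLO holds both the lowest TXN values, 30.9 and 29.2 FPKM, and values as high as 825 FPKM.

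TXN varied between groups to a similar extent. In large follicles TXN was at 341, 970.3, 738, 811 and 190.3 FPKM in HLO and at 137, 30.9, 825, 732 and 29.2 FPKM in LLO. In medium follicles TXN was at 445, 770.2, 1417, 1146 and 499 FPKM in HMO and at 369, 363, 1068, 510.4 and 301 FPKM in LMO. In small follicles TXN was at 426, 1553, 608 and 368 FPKM in HSO and at 604, 781, 1354, 484 and 280.1 FPKM in LSO. LLO replicates 2 and 5 were far below all other samples, and the groups overlapped at each stage. The log2 fold change was 1.78 ± 0.96 in large follicles (adjusted p = 0.828 by limma, exact permutation p = 0.159), 0.73 ± 0.44 in medium (adjusted p = 0.633) and 0.02 ± 0.52 in small (adjusted p = 0.999). Over all stages the high fertility samples were at 0.87 ± 0.44 above the low fertility samples on the log2 scale, with adjusted p = 0.506 by limma. Without LLO replicates 2 and 5 the estimate in large follicles was 0.25 ± 0.71.

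PRDX1 and GPX4 gave estimates in large follicles that also depended on those samples. In large follicles PRDX1 was at 1266, 301, 441, 258 and 1527 FPKM in HLO and at 1521, 15.1, 331, 1123 and 78.9 FPKM in LLO. Its log2 fold change of 1.30 ± 1.10 (adjusted p = 0.828, limma) became -0.51 ± 0.72 without LLO replicates 2 and 5. In large follicles GPX4 was at 96.2, 72.1, 35.1, 18.7 and 23.3 FPKM in HLO and at 88.1, 1.56, 4.78, 226 and 4.79 FPKM in LLO. Its log2 fold change of 1.23 ± 1.10 became -0.24 ± 1.05. Of the 10 members 8 had a positive estimate in large follicles with all samples and 1 without these samples, and the median went from 0.15 to -0.20, with an all-gene median of -0.15 in the second case.

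In medium follicles GPX4 had the largest estimate of any member. In medium follicles GPX4 was at 175, 73.2, 12.0, 157 and 101 FPKM in HMO and at 103, 15.2, 6.58, 20.5 and 38.4 FPKM in LMO. Replicates 1, 4 and 5 of HMO were high, replicate 3 was low in both groups, and the ranges overlapped. The HMO value was the higher within 5 of 5 replicate numbers for GPX4 and TXN, and within 1 of 5 for PRDX2. No share over all genes was computed for this, and values within a number carry no test. The log2 fold change was 1.60 ± 0.79, with adjusted p = 0.596 by limma and an exact permutation p = 0.127. In small follicles GPX4 was at 103, 4.89, 61.1 and 81.8 FPKM in HSO and at 221, 65.2, 9.76, 56.7 and 38.7 FPKM in LSO, with no consistent order (-0.29 ± 0.96, adjusted p = 0.959, limma).

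The other members are given by range and estimate. SOD1 ranged over 408 to 1309.8 FPKM in HLO, 409 to 1171 in LLO, 624 to 1195 in HMO, 172 to 1249 in LMO, 548 to 1364 in HSO and 380.0 to 1249.9 in LSO. Its estimates were 0.13, 0.38 and 0.48 in large, medium and small follicles, with standard errors of 0.49, 0.51 and 0.43. PRDX3 had estimates of -0.54 ± 0.96, 0.44 ± 0.80 and 0.93 ± 0.87, with adjusted p-values of 0.888 or more by limma, and -0.56 ± 1.14 in large follicles without LLO replicates 2 and 5. For PRDX2 the ranges were 44.7 to 138 FPKM in HLO, 38.1 to 192 in LLO, 51.4 to 131 in HMO, 56.0 to 157 in LMO, 55.2 to 250.0 in HSO and 53.5 to 139 in LSO, with estimates of 0.05, -0.27 and -0.06. SOD2 ranged from 0.610 FPKM in LLO replicate 2 to 16.6 FPKM in LSO replicate 1, and its estimates were 0.16, 0.62 and -0.12. SOD1, PRDX2 and SOD2 had adjusted p-values of 0.725 or more in limma's test. The scarce TXNRD1 had a mean of 0.795 ± 0.354 FPKM in HMO and of 1.76 ± 1.10 FPKM in LMO (n = 5 each), a log2 fold change of -0.54 ± 0.28 with adjusted p = 0.612 by limma and an exact permutation p = 0.135. CAT, near the limit of what these samples registered, was at 0.609, 0.363, 0.432, 0.201 and 0.229 FPKM in HMO and at 0.506, 0.678, 0.348, 0.847 and 0.810 FPKM in LMO, with a log2 fold change of -0.26 ± 0.15, adjusted p = 0.614 by limma and an exact permutation p = 0.0635. At such levels the pseudocount of 1 understates a fold change.

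**Figure D3:**
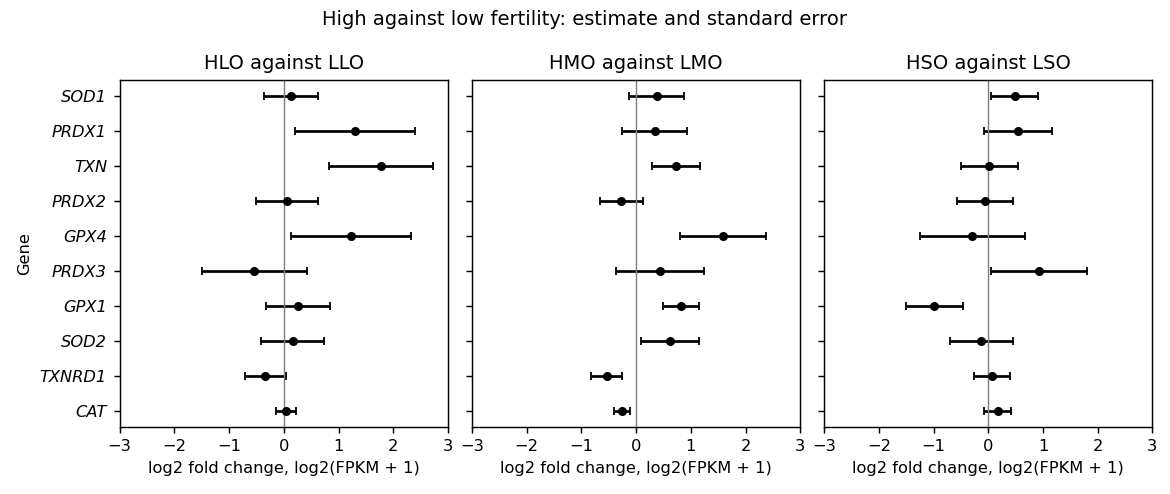
Log2 fold change of each enzyme on log2(FPKM + 1), high against low fertility, in large (HLO, LLO), medium (HMO, LMO) and small (HSO, LSO) follicles, with the standard error from limma as bars. The largest estimates are 1.78 for TXN in large and 1.60 for GPX4 in medium follicles, and no member passed an adjusted p of 0.05.

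The count of members called depended on how samples were weighted. When limma was allowed to give each sample its own weight, the test of HMO against LMO called 3 members, GPX1 (1.24, adjusted p = 0.0288) and TXN (1.24, adjusted p = 0.0412) higher and TXNRD1 (-0.98, adjusted p = 0.0312) lower in HMO. The same setting called 12.1% of all genes there. Over all stages it called TXN (1.08, adjusted p = 0.0443) and TXNRD1 (-0.60, adjusted p = 0.0393), with 7.13% of all genes called. No other setting gave an adjusted call of a member in a fertility or stage comparison.

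Over all stages together, with the stage as a covariate, no member was called by limma (0.0103% of all genes) and none had an unadjusted p under 0.05 (9.99%) in the fit without array weights or a replicate block. Estimates were 0.89 ± 0.62 for GPX4, 0.73 ± 0.52 for PRDX1, 0.32 ± 0.27 for SOD1 and -0.28 ± 0.19 for TXNRD1. Between follicle stages no member was called by limma's F-test (0% of all genes), and none reached an unadjusted p of 0.05 (1.66%). Across the 6 groups no member was called (0.031% of all genes) or reached an unadjusted p of 0.05 (6.87%), and the adjusted p was 0.733 for GPX1 and 0.735 for TXN by limma. For the interaction of stage and fertility the counts were likewise 0 by both limits (0% and 7.89% of all genes).

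Apart from GPX1, where HMO stood above HLO and HSO, every pair of groups overlapped for every enzyme. Over the samples at hand HSO came first by mean level for SOD1, CAT, PRDX1, PRDX2 and PRDX3, at 961 ± 387, 0.920 ± 0.852, 1033 ± 777, 111 ± 93.1 and 25.3 ± 24.8 FPKM (SD, n = 4). HSO has no sample numbered 2, the number with the lowest mean of SOD1, CAT, PRDX1 and PRDX3. With number 2 left out of every group LLO came first for PRDX3 (29.3 FPKM) and LSO for PRDX2 (112 FPKM), while HSO stayed first for SOD1, CAT and PRDX1. Without HSO replicate 5 the HSO mean fell to 827 FPKM for SOD1, 0.505 for CAT, 64.9 for PRDX2, 688 for PRDX1 and 13.9 for PRDX3. Each of these was below the mean of another group, such as 860 FPKM in HMO for SOD1. HMO came first for GPX4 (104 ± 65.7 FPKM, n = 5) and TXN (855 ± 419 FPKM), LSO for GPX1 (14.3 ± 10.9 FPKM) and SOD2 (6.21 ± 6.09 FPKM), and LLO for TXNRD1 (2.11 ± 1.75 FPKM). Every pair of neighbouring groups in these orders overlapped in range for all 10 members.

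Beyond the groups, much of the variation of these enzymes followed the replicate number of the sample. The numbers 1 to 5 recur in each group, and the labels do not say what they mark. PRDX3 showed it most clearly. Samples numbered 5 held 55.2 FPKM of PRDX3 in HLO, 40.8 in LLO, 31.7 in HMO, 37.0 in LMO, 59.6 in HSO and 33.0 in LSO. Those numbered 1 held 31.9, 52.3, 40.7, 20.7, 27.3 and 6.33 FPKM in the same order of groups. Number 2, of which there are 5 samples, ranged from 1.01 to 4.79 FPKM of PRDX3 and number 3 from 2.39 to 11.2 FPKM, while number 4 spanned 2.17 to 26.1 FPKM. Every number 5 sample was thus above every sample numbered 2, 3 or 4, in all groups alike.

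SOD1 and PRDX1 were highest on average in numbers 5 and 1 and lowest in numbers 2 and 3. The mean of TXN was instead highest in number 3 and lowest in number 5. Numbers 4, 2 and 1 lay between for TXN, at 715, 583 and 387 FPKM. The mean of SOD1 was 1151 ± 231 FPKM in number 5 and 1035 ± 252 in number 1, against 427 ± 175 in number 2, 551 ± 117 in number 3 and 816 ± 233 in number 4 (SD, n = 6, number 2 n = 5). PRDX1 averaged 1232 ± 661 FPKM in number 5 and 1108 ± 361 in number 1, against 215 ± 129 in number 2 and 360 ± 65.9 in number 3. TXN averaged 1159 ± 334 FPKM in number 3 and 278 ± 159 in number 5, and the 2 sets did not overlap (738 to 1553 and 29.2 to 499 FPKM). GPX4 was highest in number 1 (131 ± 54.2 FPKM) and lowest in number 3 (12.2 ± 11.6 FPKM), again without overlap. These separated numbers, and those of PRDX3 above, were picked out after the values were seen. The share of all genes that separate in this way was not computed. TXNRD1 was highest in number 5 at 2.90 ± 1.28 FPKM and lowest in number 3 at 0.695 ± 0.223 FPKM. PRDX2 was narrowest in number 3, at 49.1 to 56.0 FPKM, against 49.9 to 250.0 FPKM in number 5.

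**Figure D4:**
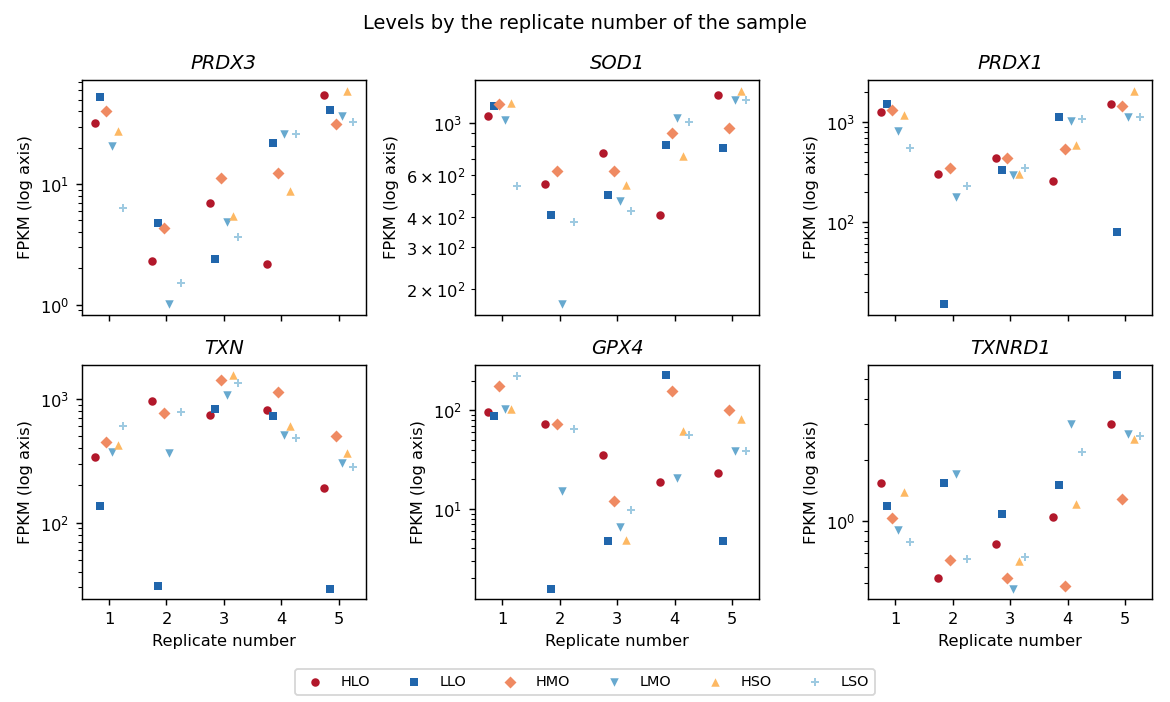
FPKM on log axes of PRDX3, SOD1, PRDX1, TXN, GPX4 and TXNRD1 against the replicate number, one point per sample marked by group. For PRDX3 all samples numbered 5 (31.7 to 59.6 FPKM) lie above all numbered 2 or 3, and for TXN all numbered 3 lie above all numbered 5. The share of all genes with such separation was not computed.

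A limma F-test of the replicate number, with the 6 groups as covariates and added after this was seen, called 9 of 10 members at an adjusted p under 0.05. It called 50.5% of all genes (58% at an unadjusted p under 0.05), so dependence on the number was common in these oocytes and the members' share is to be read against that. The adjusted p was 3.55e-05 for PRDX3, 0.000528 for TXNRD1, 0.000789 for SOD2, 0.00182 for GPX4, 0.00191 for SOD1, 0.00220 for TXN, 0.00574 for PRDX1, 0.00712 for PRDX2 and 0.00894 for GPX1, and CAT was not called (adjusted p = 0.204). Beyond the groups the number accounted for 73.0% of the sum of squares of PRDX3, 60.0% of SOD1, 33.8% of GPX1 and 24.5% of CAT, and for over 50% in 5 of 10 members, against a median of 33.5% over all genes tested. Within a number each group has 1 sample, so values within a number carry no test.

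The 29 samples fell into 2 clusters by k-means on the first 5 principal components of the other genes, one of 14 and one of 15 samples. All 6 samples numbered 5, 5 of 6 numbered 1 and 3 of 6 numbered 4 were in the first cluster, and none of the 11 numbered 2 or 3. Both clusters held samples of all 6 groups, with 2 or 3 samples of each group in the first. PRDX3, which took no part in the clustering, was at 20.7 to 59.6 FPKM in the first cluster and at 1.01 to 12.4 FPKM in the second. The share of all genes that separate the clusters was not computed. SOD1 had a median of 1120 FPKM in the first and 542 in the second, and PRDX1 of 1152 and 331 FPKM. SOD2 had medians of 5.59 and 1.86 FPKM, PRDX2 of 128 and 56.0, TXNRD1 of 1.87 and 0.669 and GPX4 of 84.9 and 18.7. TXN went the other way, with medians of 368 and 811 FPKM, as did GPX1 with 4.99 and 7.07. Other properties moved with the clusters. The number of genes above 0.5 FPKM had medians of 8317 and 7421, the 10 most abundant genes took 13.1 to 27.3% and 14.1 to 35.3% of all FPKM, and GDF9 had medians of 499 and 130 FPKM. The part of these properties in the enzymes' levels was not tested. Summed granulosa markers had medians of 19.2 and 19.1 FPKM in the clusters.

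**Figure D5:**
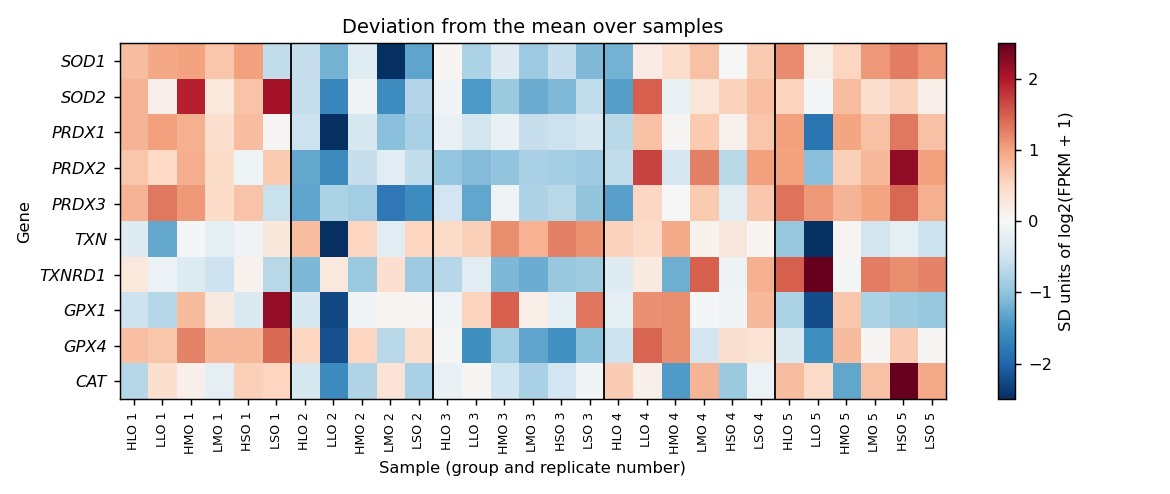
Deviation of each enzyme from its mean over the 29 samples, in SD units of log2(FPKM + 1) and cut off at 2.5, with samples ordered by replicate number and black lines between numbers. PRDX3, SOD1 and PRDX1 are mostly above their means in numbers 1 and 5 and below in numbers 2 and 3, TXN tends the other way, and LLO replicates 2 and 5 stand out in PRDX1, TXN and GPX1.

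Because the samples formed clusters, correlations between members were computed within each cluster on log2(FPKM + 1), 45 pairs in each and 90 in all, with permutation p-values from 100000 resamples adjusted over the 90. In 5 relations both r and rho had an adjusted p under 0.05 by these permutation tests. The share of all gene pairs that correlate as closely within a cluster was not computed, so the 5 are not read as particular to these enzymes. In the first cluster (n = 14) GPX1 went with TXN (r = 0.83, permutation p = 3e-05, adjusted p = 0.00135; rho = 0.84, p = 0.000270). Without the 2 samples farthest from the median of GPX1, r was 0.66. There GPX4 ran opposite to TXNRD1, with r = -0.90 (permutation p = 1e-05, the smallest these resamples can give, adjusted p = 0.000900) and rho = -0.87 (permutation p = 0.000120), and r = -0.79 without 2 samples. In the second cluster (n = 15) SOD1 went with PRDX3 at r = 0.81 (permutation p = 0.000100, adjusted p = 0.00300) and rho = 0.80 (permutation p = 0.000730), and r stayed at 0.70 without 2 samples. SOD2 went with GPX4 at r = 0.78 (permutation p = 0.000140, adjusted p = 0.00315) and rho = 0.78 (permutation p = 0.00102), and r = 0.77 without 2 samples. TXN and its reductase TXNRD1 ran opposite at r = -0.71 (permutation p = 0.00113, adjusted p = 0.0203) and rho = -0.76 (permutation p = 0.00166), with r = -0.61 without 2 samples. In this cluster TXNRD1 was near the limit of 0.5 FPKM, at 0.466 to 1.71 FPKM with a median of 0.669. The adjusted p of rho was 0.0108 to 0.0187 in these permutation tests. None of these pairs passed in both clusters. FPKM within a sample share the library total, and samples of one number may share more than their cluster.

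None of the 5 within-sample ratios differed between the fertility groups at an exact p under 0.05 in any stage, in 15 tests. The difference nearest to it was TXNRD1 to TXN in medium follicles, with a log2 ratio of -8.78 ± 0.99 in HMO and -7.50 ± 1.21 in LMO (difference -1.27, exact two-sided permutation p = 0.0794, n = 5 each). For SOD2 to SOD1 in large follicles the means were -7.46 ± 0.26 in HLO and -7.50 ± 0.84 in LLO, a difference of 0.03.

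Over the 29 samples, the gene with a symbol whose ranks were most like those of each member was SLC25A26 for SOD1 (Spearman rho = 0.96, n = 29), SRPRB for PRDX3 (0.97), RPL7L1 for PRDX1 (0.96), AKR1A1 for PRDX2 (0.94), RIOK3 for TXNRD1 (0.94) and CCDC159 for GPX1 (0.93). For GPX4 it was LOC102188114, annotated as a late histone H2B.L4-like gene (0.95), for TXN RPL27A (0.93, a symbol with 4 entries), for SOD2 ZNF22 (0.92, with 2 entries) and for CAT LAMP2 (0.72). SLC25A26 encodes the mitochondrial carrier of S-adenosylmethionine and SRPRB a subunit of the signal recognition particle receptor. These values are descriptions over samples that share clusters and numbers.

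Among 57 further genes of peroxide, thiol and glutathione metabolism, 54 were listed by symbol. FTL, the ferritin light chain, was the most abundant at 14660 ± 6687 FPKM (n = 29), but its symbol has 9 entries and the value is uncertain. GSTM3, a glutathione S-transferase, was at 4028 ± 1599 FPKM, and GLRX, cytosolic glutaredoxin, at 1119 ± 491 FPKM (3 entries). The microsomal glutathione S-transferases MGST2 and MGST3 were at 396 ± 156 and 246 ± 90.6 FPKM, and PRDX6, a peroxiredoxin that uses glutathione, at 308 ± 177 FPKM (2 entries). At the other end SOD3, the extracellular dismutase, and SRXN1, which restores overoxidized peroxiredoxins, were listed at 0 in all samples, and mitochondrial TXNRD2 averaged 0.00574 FPKM. GSR, glutathione reductase, was above 0.5 FPKM in 12 of 29 samples at a mean of 0.472 FPKM.

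Between the fertility groups none of these genes had an adjusted p under 0.05 by limma. At an unadjusted p under 0.05 there were 4 of 41 tested in large follicles (3 higher and 1 lower in HLO), 2 of 41 in medium (1 and 1), 5 of 41 in small (2 and 3) and 6 of 43 over all stages (2 and 4). These shares are to be read against the 4.14%, 8.67%, 4.41% and 9.99% of all genes given above. Median log2 fold changes of the list were -0.03, 0.05, 0.10 and 0.06. In large follicles GLRX2, mitochondrial glutaredoxin, was at 58.4 ± 26.6 FPKM in HLO and 21.8 ± 25.8 in LLO (log2 fold change 2.09 ± 0.76, adjusted p = 0.828 by limma). GSTM3 was at 4573 ± 890.0 FPKM in HLO and 2309 ± 1931 in LLO (1.63 ± 0.70) and at 5325 ± 1039 in HSO and 3429 ± 831 in LSO (0.64 ± 0.24). MSRA, a methionine sulfoxide reductase, had an estimate of 0.68 ± 0.29 and MGST1 of -0.87 ± 0.39 in large follicles. Without LLO replicates 2 and 5 these estimates were 1.07 for GLRX2, 0.40 for GSTM3, 0.38 for MSRA and -0.63 for MGST1. In medium follicles PRDX5, a peroxiredoxin of mitochondria and peroxisomes, was at 81.0 ± 25.4 FPKM in HMO and 38.2 ± 20.7 in LMO (1.25 ± 0.49, adjusted p = 0.499 by limma), and SEPHS2, which makes selenophosphate for selenoproteins, had an estimate of -0.66 ± 0.25 (3 entries). In small follicles GCLC, the catalytic subunit of glutathione synthesis, was at 3.95 ± 1.50 FPKM in HSO and 9.08 ± 4.87 in LSO (-0.96 ± 0.39, adjusted p = 0.880 by limma), and the stress-responsive SESN1 and SESN2 had estimates of 0.94 ± 0.39 and -0.52 ± 0.21. By the replicate number 26 of 43 were called after adjustment, against the 50.5% of all genes.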

How the data were processed

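RNA-seq of 29 goat oocyte samples was used. The authors enriched polyadenylated RNA, sequenced it on an Illumina HiSeq instrument and kept only reads with 1 match in the genome and fewer than 5 mismatches. Duplicates were taken out with picard, and the deposited FPKM values come from Cufflinks 2.2.1 with Ensembl annotation. The aligner's name and the genome build are not given in the sources used here. Reads shared with near-identical gene copies would be lost by the unique match. Read depth is unknown from FPKM, so no counting intervals are given. The GC samples were not analysed here. Each column was assigned through its name, and 1 column of per-sample values was not used because its name, HSO replicate 2, is that of none of the 29 samples. No coordinates or sequences are given.

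Genes over 0.5 FPKM in 4 or more samples of a comparison were tested on log2(FPKM + 1) with limma 3.58.1 (moderated tests with a trend, in R 4.3.3), with Benjamini-Hochberg adjustment over all genes tested. Fold changes are on that scale. F-tests over all 29 samples (9692 genes) covered stages, groups, their interaction and replicate numbers. Single genes and ratios were checked by exact two-sided permutation tests. Other steps used Python 3.11.15 (scipy 1.17.1, pandas 2.3.3, numpy 2.4.6), clustering used scikit-learn 1.9.0 and plots matplotlib 3.10.9. The procedure was tested on simulated data.

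The members, the further antioxidant genes, the marker lists and the tests were chosen with earlier results of these data known. Named are all 10 members, the gene most like each by Spearman rho, the 6 further genes of highest mean FPKM, and in each fertility comparison up to 4 further genes with an unadjusted p under 0.05 and the largest log2 fold change. SOD3, SRXN1, TXNRD2 and GSR were named outside this rule, after their values were seen. Alternatives tried were a replicate block, array weights, quantile normalization, median-of-ratios factors, equal sums, pseudocounts of 0.1 and 0.5, a limit of 1 FPKM or none, 1 fit over all samples, summed entries of a symbol, rank sums, and each sample left out in turn. Leaving out LLO replicates 2 and 5, the test of replicate numbers, the clusters, means without number 2 or HSO replicate 5 and orders within clusters were added after the data were seen. Correlations had been planned over all samples together and were moved to within the clusters at that point.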

Additional observations from a re-analysis of the deposited data

Results flagged for a closer look

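In 6 of 60 sets of values (a member within a group) 1 sample lay far from the others by Dixon's test at the 95% level. The test was made on FPKM without a log. Chance would give about 3 if the values had a normal spread, which skewed FPKM values need not have. The 6 are therefore not read as an excess. GPX4 in LSO replicate 1 was high at 221 FPKM, PRDX2 in HSO replicate 5 at 250.0 FPKM, TXN in LMO replicate 3 at 1068 FPKM and TXNRD1 in LLO replicate 5 at 5.23 FPKM. SOD2 in HSO replicate 3 was low at 1.25 FPKM and CAT in LLO replicate 2 at 0.163 FPKM.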

How the results depend on the processing

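The 0 adjusted calls of members in the fertility, stage, group and interaction comparisons held under every alternative except array weights, which called 3 members between HMO and LMO and 2 over all stages. The test of replicate numbers called 9 members with each sample left out in turn, 7 with median-of-ratios factors, 8 with quantile normalization or without LLO replicates 2 and 5, and 10 with array weights. By an unadjusted p under 0.05 with a log2 fold change beyond 1, array weights, the replicate block and 1 fit over all samples each passed 1 member (TXN) in large follicles. In medium follicles median-of-ratios factors, quantile normalization and the replicate block each passed 1 (GPX4) and array weights 2 (GPX1 and TXN), and in small follicles the replicate block passed 1 (GPX1). Leaving out single samples gave 0 to 2 in large follicles (1 without LLO replicate 3, 2 without LLO replicate 4), 0 to 1 in medium (1 without HMO replicate 2 or 3 or LMO replicate 1 or 3) and 0 to 1 in small (1 without LSO replicate 5). The ratios at an exact p under 0.05 numbered 0 to 1 (1 without HSO, LLO or LMO replicate 3). The 1 gene at an exact p under 0.05 became 0 with rank sums or equal sums.

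Samples with the same number deviated together by over 0.1 in 10 of 14 pairs, and 21 of 29 samples were most like a sample of their own number in another group, but the labels state no pairing, so the block was not the basis of any result. It gave no adjusted call of a member between the fertility groups, and only TXNRD1 in small follicles changed sign with it, to -0.044. At an unadjusted p under 0.05 the block passed 1, 3 and 1 members in large, medium and small follicles, 2 over all stages, 2 between stages, 2 across groups and 1 for the interaction. Array weights passed 1, 5, 0, 4, 0, 4 and 2 in that order, and single samples left out gave at most 2, 4, 1, 1, 2, 2 and 1.

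Equal sums moved the all-gene median in medium follicles from -0.07 to -0.25. Signs of estimates that had passed no limit also changed. In large follicles quantile normalization gave SOD1 -0.087, and array weights gave SOD1 -0.13, CAT -0.030 and PRDX2 -0.40. Array weights gave SOD1 -0.35, SOD2 -0.20, PRDX1 -0.60 and PRDX3 -0.82 in medium follicles, and SOD2 0.28, GPX4 0.69, TXN -0.15 and TXNRD1 -0.050 in small. Also in small follicles PRDX2 was 0.00381 with median-of-ratios factors, and TXN -0.086 with equal sums and -0.16 with quantile normalization. With samples left out, including LLO replicates 2 and 5 together, estimates in large follicles ran from -0.073 to 0.35 for SOD1, -0.17 to 0.58 for SOD2, -0.063 to 0.089 for CAT, -0.68 to 0.68 for GPX1, -0.24 to 2.15 for GPX4, -0.51 to 1.97 for PRDX1 and -0.42 to 0.40 for PRDX2. In medium follicles they ran from -0.093 to 0.62 for SOD1, -0.064 to 0.60 for PRDX1 and -0.21 to 0.85 for PRDX3, with the lowest in each case without LMO replicate 2. In small follicles they ran from -0.37 to 0.28 for SOD2, -0.10 to 0.32 for CAT, -0.85 to 0.66 for GPX4, -0.55 to 0.17 for PRDX2, -0.42 to 0.30 for TXN and -0.13 to 0.24 for TXNRD1. The causes of these changes were not tested. Depth cannot be read from FPKM.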
